A study of Mus musculus with 2 samples.

Results

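The cytosolic ribosomal protein genes encode the proteins that, together with ribosomal RNA, form the 60S (Rpl) and 40S (Rps) subunits of the cytosolic ribosome. They were chosen by symbol alone: Rpl or Rps followed by a number with at most a letter a, x or y, together with Rpsa and the stalk proteins Rplp0 to Rplp2. The rule found 76 genes, 46 of the 60S and 30 of the 40S subunit, among 31790 genes with a symbol on the array, and 163 probes carried their names. One further RefSeq symbol of the same form had no probe of its name among those used and was not analysed here. Where a gene had several probes, as 52 genes did, the probe with the highest mean log2 signal stood for it. All 76 chosen probes were well above background in every channel, and each was printed as 1 spot.

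The cells were immortalized mouse embryonic fibroblasts (MEF) of 1 line, of the strain C57BL/6 x B6:129 Ola, in which both copies of the THOC5 gene are floxed and a Cre recombinase fused to a tamoxifen-responsive receptor is made from the Rosa26 locus. Every group carried these alleles. THOC5 is a member of the THO complex, which takes part in messenger RNA processing and export. The control array held cells without tamoxifen, labelled wildtype, and the THOC5 knockdown array held cells 2 days after tamoxifen. On each array Cy3 carried RNA of serum-starved, unstimulated cells and Cy5 carried RNA of cells given fetal calf serum (FCS) for 1 h. There was 1 array per condition and no dye swap, so no test between conditions was possible, no p-value is given, and an effect of serum and a bias between the dyes cannot be told apart. Tamoxifen itself, the separate cultures and the position on the slide likewise cannot be told apart from the loss of THOC5. The probe of Thoc5 gave 4808 and 3047 intensity units (Cy3, Cy5) on the control array and 546 and 455 on the THOC5 knockdown array. Of 10 fibroblast markers, 9 were well above background in every channel, as were 3 of 5 epithelial, 3 of 3 endothelial, 0 of 3 blood and 1 of 3 muscle markers. Cdh1 of the epithelial and Myog of the muscle list were not well above background in any channel.

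Ribosomal proteins are needed in equal numbers, since each sits once in the ribosome apart from the stalk proteins, and their mRNAs are among the most abundant of growing cells. Most start with a C followed by an unbroken run of pyrimidines, the 5′ terminal oligopyrimidine (TOP) motif, through which growth signals control their translation. Serum returns starved fibroblasts to growth, and the set therefore gives a measure of how far the mRNA levels of the translation machinery moved within 1 h of serum and after loss of THOC5.

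The start sites are shown first, because the TOP motif is the feature the family is known for. RefSeq promoter sequences (GRCm38.p6) were found for 55 of the 76 genes. In 13 of these, which is 23.6%, the annotated start was a C that opened a run of at least 5 pyrimidines, against 3.01% of 27025 genes in the same table. An annotated start can lie some bases away from the start in use. Each sequence runs from 20 bases before to 20 bases from the start on, with the pyrimidine run at the start in capitals. The lines for Rps10 to Rpl15 hold genes with such a start, and those for Rpl23, Rpl39 and Rps19 hold genes named for their values whose annotated start lacks it.
Rps10 (chr17:27635225-27635264, minus strand): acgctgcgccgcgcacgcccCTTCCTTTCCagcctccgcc
Rpl14 (chr9:120571497-120571536, plus strand): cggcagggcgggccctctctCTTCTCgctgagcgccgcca
Rps6 (chr4:86857348-86857387, minus strand): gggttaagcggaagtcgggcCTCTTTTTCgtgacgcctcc
Rpl35 (chr2:39005112-39005151, minus strand): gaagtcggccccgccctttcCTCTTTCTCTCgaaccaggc
Rpl28 (chr7:4792945-4792984, plus strand): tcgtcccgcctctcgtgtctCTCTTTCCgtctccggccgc
Rpl15 (chr14:18270967-18271006, minus strand): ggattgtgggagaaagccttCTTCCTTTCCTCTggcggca
Rpl23 (chr11:97782420-97782459, minus strand): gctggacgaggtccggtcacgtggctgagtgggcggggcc
Rpl39 (chrX:37085203-37085242, minus strand): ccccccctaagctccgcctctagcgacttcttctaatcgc
Rps19 (chr7:24884893-24884932, plus strand): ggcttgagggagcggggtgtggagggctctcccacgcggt

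Over the 250 bases before to 50 bases after the start, CCGGAA (searched on both strands) stood in 31 of the 55 genes, or 56.4%, against 16.7% of all genes in the table. GGGCGG stood in 33 genes, or 60%, against 38.2%, and TATAAA in 6 genes, or 10.9%, against 15.7%. A match says only that these letters are present. The 13 genes with the pyrimidine start had a median serum log2 ratio of 0.066 on the control and 0.097 on the THOC5 knockdown array, and the 42 other genes had 0.022 and 0.020. These groups of genes overlapped. Their ranges on the control array were -0.23 to 0.32 for the former and -0.30 to 0.33 for the latter, and the THOC5 knockdown array gave -0.13 to 0.39 for the former and -0.19 to 0.41 for the latter.

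In control cells the ribosomal protein mRNAs differed little between unstimulated cells and cells given serum for 1 h, once the dyes had been normalized to each other. The processed signals (background-subtracted and dye-normalized intensity) of the 76 probes had a median of 73971 in Cy3 and 75929 in Cy5 on the control array, and of 67423 and 66856 on the THOC5 knockdown array. Signals of different probes are not set against each other, because probes hybridise differently. The serum log2 ratio (Cy5 over Cy3 of the same probe) had a median of 0.027 over the members on the control array, a ratio of 1.02, and its SD over the members was 0.14. Over the 18640 genes with a symbol whose probe was well above background in every channel, the median was -0.018 and the SD 0.47. These genes were not matched to the members in signal here or below. The part of signal strength in the narrower spread and lower counts of the members was not tested. No chosen probe of a member reached a 2-fold difference in any of these comparisons. The dye normalization sets where 0 lies: with background-subtracted signals and no dye normalization the median was 1.28 for the members and 0.84 for all genes, and with normexp and loess it was 0.10 and 0.0096.

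**Figure D1:**
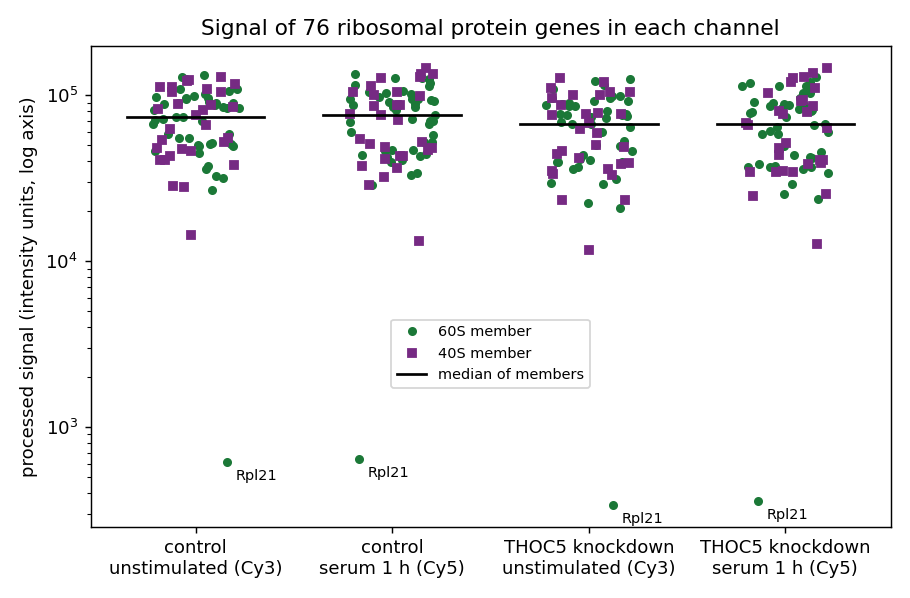
Processed signal (intensity units, log axis) of the 76 ribosomal protein genes in each of the 4 channels, 1 point per gene, with 60S members as circles and 40S members as squares; the line is the median of the members. The medians of the 4 channels lie between 66856 and 75929, and the lowest point of each channel, between 339 and 637 units, is Rpl21.

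At a threshold of 1.2-fold (0.263 on the log2 scale), 3 of the 76 members were higher after serum on the control array and 3 were lower. Of all genes tested, 17.9% were higher and 19.8% lower by as much. The member with the highest ratio was Rpl23, a 60S protein known to bind Mdm2, with 90055 units unstimulated and 113268 after serum, a log2 ratio of 0.33. Rpl14, also of the 60S subunit, had 101401 and 126373 units and a ratio of 0.32. Rps10 of the 40S subunit had 112130 and 134921 units and a ratio of 0.27. These genes stood at the upper end of a continuous series: Rps26 (0.23), Rpl5 (0.23) and Rps6 (0.23) came next, just inside the threshold.

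The lowest ratio on the control array was that of Rpl39, a small 60S protein near the exit tunnel, with 50238 units unstimulated and 40932 after serum, a log2 ratio of -0.30. Rpl36a followed with 51809 and 42567 units (-0.28), and Rps29, a zinc-binding 40S protein, with 62665 and 51960 units (-0.27). Rpl39 and Rpl36a are both X-linked, as are Rpl10 (0.13) and Rps4x (-0.20). The chosen probe of Rps29 is placed by the array's annotation on mm9 chromosome 2, whereas RefSeq has the gene on chromosome 12. The same holds for Rps27 (chromosome 9 against 3), Rpl31 (12 against 1) and Rps4x (3 against X). Ribosomal protein genes have many processed copies in the genome, and signal from a near-identical copy cannot be told apart at these probes.

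On the THOC5 knockdown array the median serum log2 ratio of the members was 0.058 (a ratio of 1.04; SD over the members 0.13) against -0.013 (SD 0.30) over all genes tested. By 1.2-fold or more, 4 members were higher and 0 were lower, against 12.0% and 10.9% of all genes. The count of higher members depends on the normalization: it was 22 with normexp and loess, 76 with no dye normalization and 69 relative to the spike-in probes, and on the control array 11, 76 and 76 in the same order. These scales move all genes: their median serum log2 ratio was 0.60 on the control and 0.36 on the THOC5 knockdown array relative to the spike-in probes, and 0.84 and 0.75 with no dye normalization. Rpl23 again had the highest ratio, with 86160 units unstimulated and 114279 after serum (0.41). Rps10 had 104283 and 136555 units (0.39), and Rps14, a 40S protein at the platform of the subunit, 119642 and 145959 units (0.29). The lowest members were Rpl7a with 73810 and 64564 units (-0.19), Rpl39 with 41491 and 37072 (-0.16) and Rpl9 with 126060 and 113203 (-0.16). In the list of members both arrays thus had Rpl23 and Rps10 near the top and Rpl39 near the bottom.

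Across the 76 members, Pearson's r between the serum log2 ratios of the arrays was 0.72 and Spearman's rho 0.69, and 57 members had the same sign on both. Over the 18640 genes tested r was 0.67 and rho 0.53, and 12791 genes had the same sign, so likeness of the arrays was not particular to the members. The points share probes, dyes and dye orientation on both arrays, and the part of a dye bias of single probes in this likeness was not tested.

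**Figure D2:**
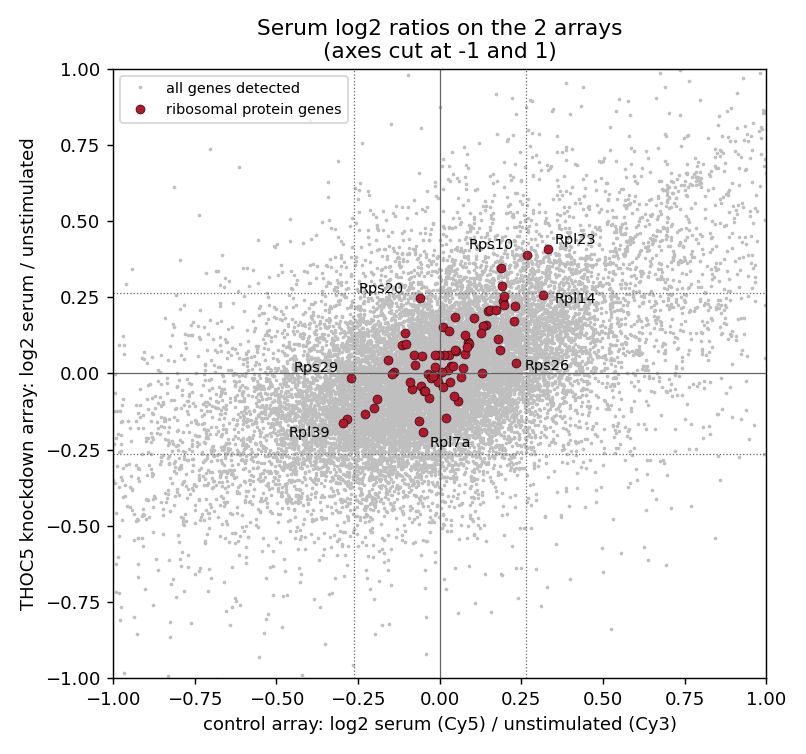
Serum log2 ratio on the control array (x axis) and on the THOC5 knockdown array (y axis) for the 76 ribosomal protein genes (red) and all genes tested (grey); dotted lines mark 1.2-fold, and genes beyond a log2 ratio of 1 in either direction lie outside the axes. The members form a narrow cloud around 0 with Rpl23 and Rps10 at the upper right and Rpl39 at the lower left.

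By subunit, the 46 members of the 60S had median serum log2 ratios of 0.039 on the control and 0.058 on the THOC5 knockdown array, and the 30 members of the 40S had 0.0085 and 0.048. The acidic stalk proteins Rplp1 (0.012 and 0.060) and Rplp2 (-0.053 and 0.057) and their anchor Rplp0 (0.047 and 0.075) showed ratios close to 0 on both arrays. Rpl5 and Rpl11, which carry 5S ribosomal RNA and can bind Mdm2, had 0.23 and 0.22 (Rpl5) and -0.058 and -0.042 (Rpl11). Rps6, the substrate of S6 kinase, had 0.23 on the control and 0.17 on the THOC5 knockdown array.

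Several members with well-known roles outside or at the edge of the ribosome lay within 1.2-fold on both arrays. Rpsa, also known as the laminin receptor, had 0.040 and 0.023. Rps27a, which is made as a fusion with ubiquitin, had -0.021 and -0.0085. Rpl3, which lies near the peptidyl transferase centre, was lower than most with -0.19 and -0.085, and Rps3 at the mRNA entry had -0.015 and 0.060. Rpl22, an RNA-binding protein of the 60S, had 0.026 and 0.010. Rpl26 had 0.086 and 0.10, and Rpl41, the smallest ribosomal protein, 0.031 and -0.029.

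The difference of the serum ratios, THOC5 knockdown minus control, asks whether serum acted otherwise on these genes without THOC5. Its median over the members was 0.030 with an SD of 0.099, against 0.0054 with an SD of 0.35 over all genes tested. Relative to the spike-in probes, whose own log2 ratio was 0.25 higher on the THOC5 knockdown array, both medians were below 0 (-0.22 and -0.24). One member had a serum ratio at least 1.2-fold higher in THOC5 knockdown and 0 had one as much lower, against 17.1% and 15.1% of all genes. That member was Rps20, a 40S protein, with 104539 units unstimulated and 100332 after serum on the control array (-0.059) and 86980 and 103261 on the THOC5 knockdown array (0.25), a difference of 0.31. Relative to the spike-in probes its difference was 0.060. Before any scaling between the arrays, only the unstimulated THOC5 knockdown channel of Rps20 stood apart from the other 3. After the arrays had been scaled to each other, its log2 level, THOC5 knockdown over control, was -0.21 in Cy3 and 0.096 in Cy5.

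Rps29 had the next highest difference (0.26), from -0.27 on the control to -0.014 on the THOC5 knockdown array. Rps19, which is mutated in Diamond-Blackfan anaemia, followed with 0.24: its signals were 14264 and 13255 on the control array (-0.11) and 11609 and 12731 on the THOC5 knockdown array (0.13). Rpl13a, a 60S protein that can leave the ribosome to silence inflammatory mRNAs, had -0.12 and 0.094. At the other end stood Rps26 (0.23 and 0.035; difference -0.20), Rps2 (0.019 and -0.15; -0.17) and Rpl19 (0.056 and -0.091; -0.15). Rpl10, which joins the 60S subunit late, had 0.13 on the control array and a ratio of 0 within rounding on the THOC5 knockdown array.

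Probes printed many times give the error of a spot within an array. For 271 and 269 such probes with at least 5 usable spots, log2 ratios varied between the spots of a probe with a median SD of 0.029 (control) and 0.031 (THOC5 knockdown). One probe of Rpl23, not the chosen one, was printed as 10 spots: its mean log2 ratio was -0.043 ± 0.020 (SD, 10 spots) on the control and 0.081 ± 0.025 on the THOC5 knockdown array. The spots' ranges on the arrays, -0.079 to -0.017 and 0.033 to 0.11, did not overlap. Spots of 1 array share the RNA, the labelling and the hybridisation, and their SD leaves out the spread between cultures.

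Different probes of the same gene disagreed by far more than spots did. Over 51 members with at least 2 probes well above background in every channel (137 probes), the pooled SD between probes of a gene was 0.12 for the serum ratio on either array (0.124 on the control, 0.115 on the THOC5 knockdown array), close to the SD between genes of 0.136 and 0.129. The ratio of the chosen Rpl23 probe, 0.33 on the control array, stood beside 0.090 at a second probe and -0.043 at the repeated one. Probes of Rps15a disagreed most on the control array, by 0.62, followed by those of Rpl22 (0.41). The order of single members given above thus rests on the choice of the probe, and the mean over all probes of a gene left 0 members lower by 1.2-fold on the control array.

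Levels on the THOC5 knockdown array were set against the control array in each channel after the arrays had been scaled to a common distribution of mean log2 intensity (Aquantile). In unstimulated cells (Cy3) the median log2 level of the members, THOC5 knockdown over control, was -0.045, a ratio of 0.969, with an SD of 0.11, against -0.0025 (SD 0.38) over all genes tested. By 1.2-fold or more, 0 members were higher and 1 was lower in Cy3, against 16.4% and 17.2% of all genes. After serum (Cy5) the median of the members was -0.010 with an SD of 0.11, against -0.0044 (SD 0.41) over all genes. In Cy5 0 members were higher and 1 was lower by as much, against 18.8% and 18.4% of all genes.

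The direction of the small shift depends on the scaling. With Aquantile 52 of the 76 members lay below the median of all genes in Cy3, and with the 75th percentile of each channel as the scale 25 did. The median of the members minus that of all genes was -0.043 under the former and 0.079 under the latter in Cy3, and -0.0060 and 0.11 in Cy5. Under quantile normalization of the 4 channels it was -0.052 in Cy3 and 0.017 in Cy5. The counts move too: with the 75th percentile 6 members were higher by 1.2-fold in Cy3 and 7 in Cy5, and relative to the spike-in probes 4 were lower in Cy3 and 42 in Cy5. On that scale the median level in Cy5 was -0.28 for the members and -0.39 for all genes, and 10 of the 76 members lay below the median of all genes.

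The member that was lower in both channels was Rpl21, a 60S protein, with 615 units unstimulated and 637 after serum on the control array and 339 and 356 on the THOC5 knockdown array. Its log2 level on the THOC5 knockdown over the control array was -0.59 in Cy3 and -0.57 in Cy5, while its serum ratio was the same on both arrays within the error of a spot (0.050 and 0.072). The other probe of Rpl21, with 434 and 417 units on the control and 278 and 259 on the THOC5 knockdown array, had -0.40 and -0.44. Both probes thus pointed the same way, but both are of low signal. The part of signal strength in these levels was not tested.

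Apart from Rpl21, the lowest member in Cy3 was Rps27 (-0.25), and the lowest in Cy5 were Rps26 (-0.24) and Rpl10a (-0.18). The highest in Cy3 were Rpl7a (0.23), Rpl4 (0.14) and Rpl15 (0.12) and in Cy5 Rps19 (0.26), Rps18 (0.15) and Rpl4 (0.14). Rpl4 was the member that stood among the 3 highest in both channels. The stalk protein genes Rplp0, Rplp1 and Rplp2 lay between -0.10 and -0.052 in Cy3 and between -0.059 and 0.059 in Cy5. None of these members passed 1.2-fold.

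Within single genes, however, probes placed further downstream often gave a lower level on the THOC5 knockdown array than the chosen probe of the same gene. For 13 members, 15 further probes lay 100 to 10000 bases downstream of the chosen probe on the same strand, by the array's mm9 annotation. This window was set after the values had been seen. Distances are genomic, probes were not placed in exons, introns or UTRs, and a probe bearing a gene's name may lie in an intron or beyond the transcript's end. In Cy3 11 of the 15 were lower than the chosen probe, 7 of them by at least 1.2-fold, with a median difference of -0.23, and in Cy5 11 were lower, 6 by at least 1.2-fold, with a median of -0.22. Of 25 probes that lay upstream by the same distances, 9 were lower in Cy3 and 5 in Cy5, with 0 and 1 lower by 1.2-fold. Their median differences were 0.068 and 0.049. These upstream probes were not matched to the downstream ones in signal. In Cy3 of the control array the downstream probes had a median of 5076 units and their chosen probes one of 55471. With one constant per channel as the scale, the downstream probes had a median difference of -0.39 in Cy3 and -0.36 in Cy5. No share over all genes stands beside these counts, so they cannot be called particular to the ribosomal protein genes.

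The probe sequences of 5 such genes are shown because their order along the genome carries this comparison. Each line gives 30 bases of a 60-base probe as listed with the array; AATAAA or ATTAAA, the hexamers known as signals for cleavage and polyadenylation, are in capitals where the probe holds one, and the bases are otherwise the first 30 of the probe. Positions are those of the whole probe on mm9.
Rpsa chosen probe (chr9:120040617-120040676, plus strand): gatggaaggaaAATAAAgttgctaaaagct
Rpsa downstream probe (chr9:120040967-120041026, plus strand): acctggccagattgggattttgtgtcccag
Rpl14 chosen probe (chr9:120483487-120483546, plus strand): ctacacagaatAATAAAggttctttttgac
Rpl14 downstream probe (chr9:120483689-120483748, plus strand): gttaaccctaacaAATAAAtttcccaccaa
Rpl6 chosen probe (chr5:121658915-121658974, plus strand): ttgttaacctaATTAAAcagcttcataggt
Rpl6 downstream probe (chr5:121659155-121659214, plus strand): ttagaggcacatacactgccatggctgcct
Rpl22 chosen probe (chr4:151706515-151706574, plus strand): ggaggaagacgaggattaggacacattggt
Rpl22 downstream probe (chr4:151708012-151708071, plus strand): gctgtaaacaacattaaccctgggttgatt
Rpl15 chosen probe (chr14:19101657-19101716, minus strand): atcagaagaaatcctgacacccagtggatc
Rpl15 downstream probe (chr14:19100588-19100647, minus strand): gacatttcacaaaggccatacttaaccaca

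One of these hexamers stood in 26 of the 76 chosen probes (34.2%) in 7 of the 15 downstream probes (46.7%) and in 16.7% of 39429 probes of the array. The downstream probe of Rpl22 lies 1438 bases beyond the chosen one. It gave 5205 units unstimulated and 3974 after serum on the control array and 1632 and 1899 on the THOC5 knockdown array, a log2 level of -1.35 in Cy3 and -0.74 in Cy5, where the chosen probe had 0.056 and 0.041. Its serum log2 ratio was -0.39 on the control and 0.22 on the THOC5 knockdown array, where the chosen probe had 0.026 and 0.010. The downstream probe of Rpl22 was thus lowest in unstimulated THOC5 knockdown cells.

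At Rpl15 the probe 1010 bases downstream gave 2910 and 2613 units on the control and 1372 and 1592 on the THOC5 knockdown array (-0.78 in Cy3 and -0.40 in Cy5), against 0.12 and 0.046 at the chosen probe. Rpl27a had -0.68 and -0.50 at a probe 1600 bases downstream and -0.043 and 0.021 at the chosen one. For Rps6, 626 bases downstream, the values were -0.41 and -0.35 against -0.072 and -0.13. The chosen Rpsa probe, which holds AATAAA, had 0.054 and 0.037, and the probe 291 bases beyond it had -0.42 and -0.27.

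Rpl6 (181 bases) had -0.48 and -0.47 downstream and Rps25 (153 bases) had -0.43 and -0.45, both at probes of low signal (53 units for Rpl6 and 292 for Rps25 in Cy3 of the control array). In contrast, 2 probes of Rpl17 and 1 of Rpl13 were higher than the chosen probe in Cy5 (0.15, 0.19 and 0.15). At Rps15a a probe 4263 bases downstream gave 61 and 88 units on the control and 118 and 140 on the THOC5 knockdown array, a level of 1.14 and 0.85. The chosen probe is the brightest of its gene by rule, and the part of signal strength in these differences was not tested.

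**Figure D3:**
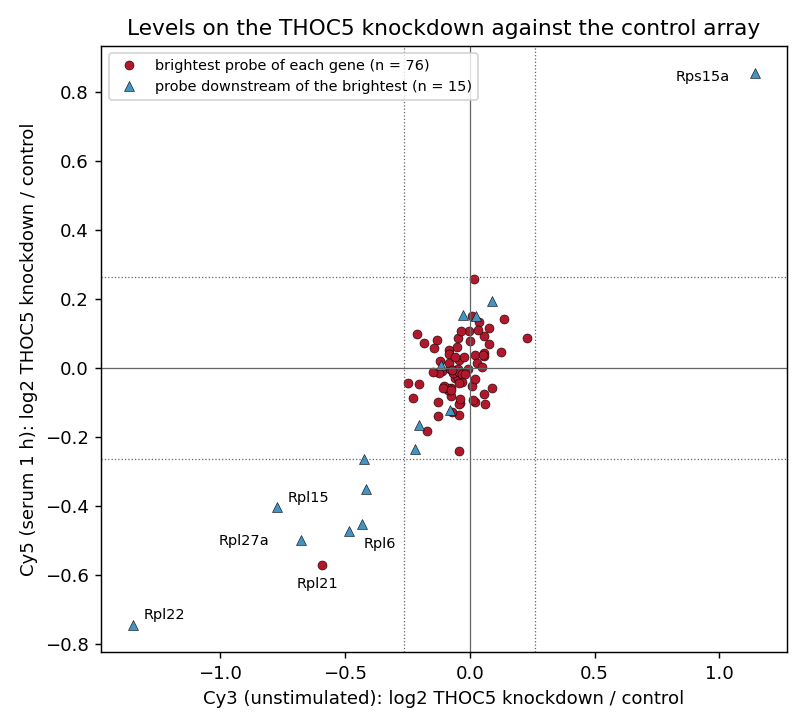
Log2 level on the THOC5 knockdown over the control array in unstimulated cells (Cy3, x axis) and after serum (Cy5, y axis) for the chosen probe of each of the 76 genes (circles) and the 15 probes downstream of a chosen probe (triangles); dotted lines mark 1.2-fold. The circles other than Rpl21 lie within 1.2-fold of the control array, and the triangles reach -1.35 (Rpl22) at one end and 1.14 (Rps15a) at the other.

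Genes close to the ribosomal protein genes in function were read the same way. Fau, which encodes a ribosomal protein as a fusion with a ubiquitin-like protein, had a serum log2 ratio of -0.15 on the control and -0.042 on the THOC5 knockdown array. Gnb2l1, which encodes the 40S scaffold Rack1, had 0.44 and 0.33, higher by 1.2-fold on both arrays. Of 7 paralogs of ribosomal protein genes on the array, Rpl3l, Rpl10l and Rpl39l were not well above background in any channel. Rpl22l1, the paralog of Rpl22, gave 21987 and 18110 units on the control and 13025 and 12804 on the THOC5 knockdown array, a log2 level of -0.46 in Cy3 and -0.20 in Cy5.

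Other mRNAs known to start with a TOP motif, translation factors among them, were measured for 25 of 26 genes. Their median serum log2 ratio was 0.093 on the control and -0.023 on the THOC5 knockdown array, with 2 higher and 0 lower by 1.2-fold on the former and 1 higher and 1 lower on the latter, against 17.9% higher and 19.8% lower of all genes on the control and 12.0% and 10.9% on the THOC5 knockdown array. With normexp and loess the median on the THOC5 knockdown array was 0.023, so its sign depends on the normalization. The medians were 0.71 and 0.35 relative to the spike-in probes, and with no dye normalization 1.05 and 0.98. The 2 higher genes were Npm1 (0.44), a nucleolar protein, and Tomm20 (0.43), which had 0.086 and -0.078 in the same order on the THOC5 knockdown array. The elongation factors Eef1a1 (0.14 and 0.20) and Eef2 (0.13 and -0.047) lay within 1.2-fold.

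Genes of ribosome biogenesis, whose products build ribosomes in the nucleolus but are not part of them, differed more. All 85 of the list were well above background. Their median serum log2 ratio was 0.13 on the control array, with 23 higher and 0 lower by 1.2-fold, and -0.10 on the THOC5 knockdown array, with 3 higher and 11 lower. Of all genes tested, 17.9% were higher and 19.8% lower on the control array and 12.0% and 10.9% on the THOC5 knockdown array. The difference of the serum ratios was lower by 1.2-fold in 36 of the 85 and higher in 0, against 0 lower and 1 higher of the 76 ribosomal protein genes and 15.1% lower and 17.1% higher of all genes. Relative to the spike-in probes 76 of the 85 biogenesis genes and 18 of the 76 ribosomal protein genes were lower, as were 8709 of the 18640 genes tested, and with that scale, or with no dye normalization, the median ratio of the biogenesis genes was above 0 on both arrays (0.75 and 0.27, and 1.02 and 0.70). The medians of all genes were 0.60 and 0.36, and 0.84 and 0.75. The spike-in scale moves every gene of an array by the same amount, so it cannot change where a list lies relative to all genes. With no dye normalization the biogenesis genes lay above all genes on the control and below them on the THOC5 knockdown array. Ddx21, an RNA helicase of the nucleolus, had 3745 units unstimulated and 5470 after serum on the control array (0.55) and 7902 and 6674 on the THOC5 knockdown array (-0.24). Ncl, which encodes nucleolin, had 0.12 and -0.51, and Rrs1, an assembly factor of the 60S subunit, 0.54 and 0.094.

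Mitochondrial ribosomal protein genes, which build the separate ribosome of mitochondria, had a median of -0.13 on the control and -0.11 on the THOC5 knockdown array. Of the 75 tested, 0 were higher and 16 lower by 1.2-fold on the control array and 0 and 6 on the THOC5 knockdown array, where 19.8% (control) and 10.9% (THOC5 knockdown) of all genes were lower. Both medians were above 0 relative to the spike-in probes (0.49 and 0.26), as they were with no dye normalization (0.76 and 0.69). With no dye normalization they lay below those of all genes on each array (0.84 and 0.75). For comparison, Myc, a transcription factor known to act on genes of ribosome biogenesis, had 9968 and 39391 units on the control (1.98) and 9873 and 19514 on the THOC5 knockdown array (0.98), and the serum-induced gene Fos had 5.71 and 6.55. The difference of the serum ratios ran from -0.20 to 0.31 over the ribosomal protein genes, from -0.35 to 0.48 over the mitochondrial ones and from -0.92 to 0.11 over the biogenesis genes. These are values of 1 array per condition, and differences between lists were not tested.

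**Figure D4:**
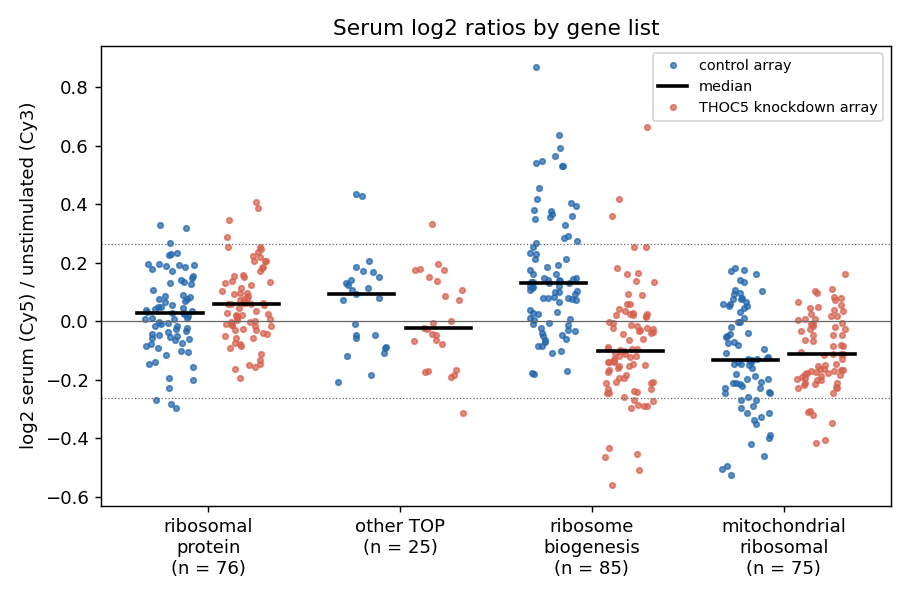
Serum log2 ratio of each gene on the control array (blue) and the THOC5 knockdown array (red) for ribosomal protein genes, other genes with a TOP motif, ribosome biogenesis genes and mitochondrial ribosomal protein genes; black lines are medians and dotted lines mark 1.2-fold. The median of the biogenesis genes lies at 0.13 on the control and -0.10 on the THOC5 knockdown array, and that of the ribosomal protein genes at 0.027 and 0.058.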

How the data were processed

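The authors extracted total RNA, labelled cRNA with Cy3 (unstimulated) or Cy5 (1 h serum) and hybridised both to 1 dual-colour Agilent array per condition. Per the file headers, the deposited scanner files hold intensity values made with Agilent Feature Extraction 10.7.3.1: background-subtracted, dye-normalized processed signals, a log10 ratio of Cy5 over Cy3, and score columns that mark spots well above background, saturated or outlying. The deposited table of the whole series holds the size of that log10 ratio without its sign and served as an alternative only. Positions are those of mm9 in the scanner files.

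Here, outlier spots (239 and 234) were left out and log2 processed signals of a probe's spots averaged. No spot of a chosen probe was an outlier or saturated. Levels were compared after Aquantile scaling in limma 3.58.1 (R 4.3.3), and other steps used Python 3.11.15 with numpy 2.4.6 and pandas 2.3.3. With 1 array per group values were set against all genes at a threshold of 1.2-fold, without tests. The scaling was tested on simulated data with known changes in a small part of the probes and the same shift over all probes. That simulation cannot tell which scaling holds for these arrays, where far more genes differ. The number of arrays limits the precision. Alternatives were normexp (offset 50) with loess, no dye normalization, all probes averaged, outlier spots kept, a wider list of members, 75th percentile or quantile scaling, the series table and, added after seeing the data, spike-in scaling.

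Members and gene lists (other TOP genes, ribosome biogenesis, mitochondrial ribosomal proteins, paralogs, cell type markers) were chosen with earlier results of these data known. Some members are not reported by name here. Named members are otherwise the 3 highest and 3 lowest of each comparison, a list of members with known roles, and members whose probes disagreed most or were printed repeatedly; further members named as neighbours of these, as X-linked or for a downstream probe were chosen after their values were seen. Symbols of 75 of the 76 members matched RefSeq protein-coding genes, whose coordinates (GRCm38.p6) were used for promoter windows alone.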

Additional observations from a re-analysis of the deposited data

Results flagged for a closer look

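Results are given here for 2 gene lists whose medians, and for 3 members whose ratios, had opposite signs on the arrays; the members' ratios lay beyond 3 times the SD between spots on each. With 1 array per condition the difference was not tested in any of them. The median serum log2 ratio of the ribosome biogenesis genes was 0.13 on the control and -0.10 on the THOC5 knockdown array, a difference of -0.232. That of the other TOP genes was 0.093 and -0.023, a difference of -0.116. Relative to the spike-in probes the medians were above 0 on both arrays for biogenesis (0.75 and 0.27) and other TOP genes (0.71 and 0.35). All genes had 0.60 and 0.36 on that scale, which moves every gene of an array by the same amount. Both lists lay above all genes on the control array, and the biogenesis genes lay below them on the THOC5 knockdown array. The place of the other TOP genes on the THOC5 knockdown array depends on the normalization. Their median was above that of all genes with normexp and loess (0.023 against 0.013) and with no dye normalization (0.976 against 0.755). The members were Rps19 with a difference of 0.239, Rpl13a with 0.211 and Rps27 with 0.2005, each lower after serum on the control and higher on the THOC5 knockdown array. With the mean of all its probes Rpl13a had -0.064 and 0.061, within 3 times that SD. With normexp and loess the signs stayed opposite, but the control ratios of Rps19 (-0.080) and Rps27 (-0.083) lay within it too. With no dye normalization these 3 members had ratios above 0 on both arrays. The probe of Rps27 is annotated on another chromosome than the gene. These members had, relative to the spike-in probes, ratios above 0 on both arrays, with differences of -0.0081 (Rps19), -0.036 (Rpl13a) and -0.047 (Rps27).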

How the results depend on the processing

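Of 111 values under alternatives, 76 stayed within the SD between spots (medians) or within 1.5 times (counts). Of these, 15 with outlier spots kept and 9 from the series table could hardly differ, since no chosen probe had an outlier spot and the series table gives sizes of the same ratios, with the sign taken from the scanner files. The other 35 follow. With normexp and loess the median serum log2 ratio was 0.104 on the control and 0.156 on the THOC5 knockdown array and the median difference 0.0731, with 11 and 22 members higher after serum and 4 with a higher serum ratio in THOC5 knockdown. With no dye normalization the medians were 1.28, 1.21 and -0.0322, with 76 members higher on each array, 0 lower on the control array and 1 with a lower serum ratio in THOC5 knockdown. Relative to the spike-in probes they were 0.646, 0.431 and -0.217, with 76 and 69 members higher, 0 lower on the control array, and 0 higher and 18 lower in the difference; on that scale the median level was -0.279 in Cy5, against -0.392 over all genes, with 4 members lower in Cy3 and 42 in Cy5. With all probes averaged 0 members were lower after serum on the control array and 2 had a higher serum ratio in THOC5 knockdown, and in each of Cy3 and Cy5 1 was higher and 3 were lower. With the 75th percentile the median level was 0.11 in Cy3 and 0.136 in Cy5, with 6 and 7 members higher. With quantile normalization 2 were lower in Cy3. The cause was not tested. The sign of the median difference and of the median levels thus depends on the scaling, and 1 array per condition, 1 spot per chosen probe and a single dye orientation limit every value. No paired analysis was possible because each group has 1 array.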
